A study of Mus musculus with 8 samples.

Results

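The genes described here encode subunits of respiratory complexes II, III, IV and V in the soleus muscle (SOL) of MI4KO and flox mice. They were taken by gene symbol, as every row named for a succinate dehydrogenase subunit (Sdha to Sdhd), cytochrome c1 (Cyc1), a ubiquinol-cytochrome c reductase subunit (Uqcr), a cytochrome c oxidase subunit (Cox4 to Cox8) or an ATP synthase subunit (Atp5). Of 24054 genes in the deposited table, 48 rows carried such a name, and the 46 rows that reached 1 in some mouse were kept. These were 4 genes of complex II, 9 of complex III, 16 of complex IV and 17 of complex V. The 2 rows left out, Cox7b2 and Cox8c, are testis isoforms of complex IV subunits and had no read in any of the 8 mice. A name does not always mark a subunit, and 2 of the 17 complex V rows, Atp5s and Atp5sl, encode accessory factors rather than parts of the enzyme. Atp5s encodes the coupling factor also called factor B, and Atp5sl (Dmac2) takes part in building complex I.

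MI4KO mice carry floxed alleles of Irf4, which encodes interferon regulatory factor 4, on both chromosomes together with Myl1-Cre, a Cre knocked into the Myl1 locus. Flox mice are littermates with the same floxed alleles and no Cre. All 8 mice, 4 in each group, were males of the C57BL/6 strain, and their sample labels record a high fat diet. Their age is not given in the sources used here. Myl1 is a fast myosin light chain gene, so that Cre acts in muscle fibers while endothelial, immune, nerve and other cells of the muscle keep Irf4. Each mouse gave 1 poly(A) RNA-seq library, and mouse numbers 1 to 4 within a group follow the labels' own numbers from low to high.

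The respiratory complexes lie in the inner mitochondrial membrane. Complex II passes electrons from succinate to ubiquinone, complex III passes them on to cytochrome c, and complex IV hands them to oxygen. Complexes III and IV pump protons while they do so, and complex V lets the protons flow back and makes ATP. SOL is rich in oxidative fibers, and its fibers carry these enzymes at high levels. Nuclear genes encode every subunit of complex II and most subunits of the others, and the mitochondrial genome encodes the rest. None of the mitochondrially encoded subunits was listed in the table used here. Several complex IV subunits exist as a form made in most tissues and a form made in heart and skeletal muscle. The c subunit of complex V is made from a set of genes that encode the same mature protein with different import sequences.

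Irf4 itself was read at a low level. It was at 0.686, 1.46, 1.58 and 1.68 in flox mice and 0.725, 0.8404, 0.266 and 1.03 in MI4KO mice, with between 4 and 23 reads behind each value, and flox mouse 1 lay inside the MI4KO range (log2 fold change -0.45, 95% interval -0.88 to -0.024, limma unadjusted p = 0.040). This log2 fold change was computed with 1 added to each value, which understates the change of a gene this low. Its means were 1.35 ± 0.451 in flox mice and 0.715 ± 0.324 in MI4KO mice (SD, n = 4). Over its 8 values, Irf4 gave p = 0.114 by a two-sided exact permutation test. The smallest p that 4 mice against 4 allow is 0.0286. Myl1, at the locus of the Cre, was at 3151, 3664, 3510.3 and 3262 in flox mice and 2447, 2203, 2736 and 2846 in MI4KO mice, lower in every MI4KO mouse. The libraries held between 13417512 and 16384565 reads on genes, and 3 reads correspond to values between 0.181 and 0.225. The table gives TMM-normalized CPM (reads per unit of library size, scaled so that most genes keep their level), called the value from here on. Skeletal muscle markers such as Acta1 and Des were high in every mouse, with a summed value of 70759.5 to 88745 over 6 genes, and slow fiber markers (Myh7 and 6 others) summed to 32196 to 42353. Several libraries stood apart. In flox mouse 1, 10 liver markers summed to 143 against 1.197 to 3.19 in the other mice, and MI4KO mouse 3 had the largest column sum. The 4 heart muscle markers summed to 1462 in flox mouse 3, 1095 in MI4KO mouse 3 and 1054 in MI4KO mouse 4, against 24.6 to 33.4 in the other 5 mice. Nearly all of it was Myh6, the alpha cardiac myosin gene, at 1451, 1089 and 1045 in these 3 mice. Of the other heart muscle markers, Nppa (at most 0.146) and Myl7 (0) were at or near 0 in all 8 mice. Myl4 was read in every mouse, at 6.38 to 16.7. It was at 10.7 in flox mouse 3, 6.38 in MI4KO mouse 3 and 8.52 in MI4KO mouse 4.

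The promoters of these genes are shown first, because IRF factors, nuclear respiratory factors and estrogen-related receptors are known to act at short DNA motifs. Any part of such motifs in the levels below was not tested. RefSeq promoters on GRCm38.p6 were at hand for 36 of the 46 genes, each running from 250 bases before the annotated start to 50 bases after it. Both strands were searched for exact letters. The NRF1 letters GCGCATGCG stood in a promoter of 6 of the 36 genes (16.7%). They did so for 4.22% of the 8955 genes with a promoter among those tested for a difference in SOL. Of all 32851 promoters, counted singly rather than by gene, 1.75% held them. The ETS letters CCGGAAG, read by GABP, stood in promoters of 12 genes (33.3% against 20.1% and 8.86%). The estrogen-related receptor letters TCAAGGTCA stood in those of 2 genes, Atp5g3 and Sdhd (5.56% against 0.313% and 0.423%). YY1 letters (AAGATGGCG) stood in those of 3 genes (8.33% against 3.76% and 1.40%). The IRF letters GAAANNGAA stood in those of 2 genes, Atp5g1 and Cox7c (5.56% against 8.69% and 8.56%). The TATA letters TATAAA stood in those of 2 genes, Atp5l and Cox8b (5.56% against 9.001% and 13.6%). The MEF2 motif was found for 0 of the 36 genes, against 2.46% of the tested genes and 3.19% of all single promoters. Against the tested genes, NRF1, ETS, YY1 and ERR letters were thus held by a larger share of these genes. IRF, TATA and MEF2 letters were held by a smaller share. The ERR, IRF and TATA shares rest on 2 genes each, that of YY1 on 3 and that of MEF2 on 0, and no share was tested. A match describes letters only and is not a measured binding site.

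The stretches that follow are written 5′ to 3′ on the gene's strand, with the matched letters in capitals. The first pair holds NRF1 and ETS letters, that of Uqcr11 (a small subunit of complex III) and that of Cox6a1 (the widely made isoform of subunit 6a), and in Cox6a1 the NRF1 letters match on both strands and overlap.
Uqcr11 (chr10:80406802-80406921, minus strand): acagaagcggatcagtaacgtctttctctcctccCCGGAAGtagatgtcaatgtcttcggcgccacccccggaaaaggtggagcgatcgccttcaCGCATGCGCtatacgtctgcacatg
Cox6a1 (chr5:115348939-115349128, minus strand): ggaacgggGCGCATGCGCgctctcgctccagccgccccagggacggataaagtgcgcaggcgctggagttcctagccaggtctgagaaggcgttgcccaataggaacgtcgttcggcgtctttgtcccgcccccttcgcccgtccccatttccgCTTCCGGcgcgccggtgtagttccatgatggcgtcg
The next pair sets the widely made isoform Cox8a, with ETS letters 5 bases before its start, beside the muscle isoform Cox8b, with TATA letters that begin at base 5 of its annotated transcript.
Cox8a (chr19:7217597-7217716, minus strand): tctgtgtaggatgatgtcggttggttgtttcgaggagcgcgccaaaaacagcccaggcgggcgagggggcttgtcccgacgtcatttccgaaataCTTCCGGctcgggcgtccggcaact
Cox8b (chr7:140900427-140900546, minus strand): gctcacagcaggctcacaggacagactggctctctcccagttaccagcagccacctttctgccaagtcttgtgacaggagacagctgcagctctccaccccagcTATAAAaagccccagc
The last 3 show the ERR letters of Atp5g3, 52 bases before its start, and the IRF letters of Atp5g1, 208 bases before its start, and of Cox7c, at base 4 of its transcript. Atp5g1 and Atp5g3 encode the same mature c subunit.
Atp5g3 (chr2:73911307-73911426, minus strand): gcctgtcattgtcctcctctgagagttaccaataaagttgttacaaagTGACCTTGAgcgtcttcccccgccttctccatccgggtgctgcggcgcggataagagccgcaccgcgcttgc
Atp5g1 (chr11:96075782-96075881, minus strand): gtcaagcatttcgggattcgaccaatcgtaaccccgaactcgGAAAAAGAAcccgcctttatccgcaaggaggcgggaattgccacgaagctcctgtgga
Cox7c (chr13:86046776-86046865, minus strand): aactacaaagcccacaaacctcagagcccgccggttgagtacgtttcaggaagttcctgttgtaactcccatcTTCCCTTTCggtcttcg

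No gene of complexes II to V differed between MI4KO and flox SOL by the test used here. Of the 46 genes, 45 reached 1 in 4 mice or more and were tested, by limma on log2(value + 1) over all 11865 genes that passed the same filter. The 1 gene left out was Cox6b2, a testis isoform, at 1.06, 0.208, 0.3001 and 0.656 in flox mice and 0.798, 0.194, 0.465 and 0.181 in MI4KO mice. At an unadjusted p under 0.05 there were 0 of the 45 genes, where 3.36% of all genes tested passed. A fold of at least 1.5 with that p was met by 0 of the 45, against 0.219% of all genes. After Benjamini-Hochberg adjustment over all genes, limma called 0 of the 45 and 0% of all genes at an adjusted p under 0.05, and edgeR's and DESeq2's count tests on the recovered reads also called 0 of both. MI4KO and flox values overlapped in each of the 45 genes, while they did not overlap in 2.07% of all genes. With library size scaling, an alternative, 1 of the 45 (Uqcrc2) did not overlap, against 2.55% of all genes. The smallest unadjusted p was that of Cox4i2, at 0.25, and the next was that of Cox5b, at 0.32.

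The intervals of the differences were narrow. For 44 of the 45 genes the 95% interval of the fold lay inside 1.25-fold either way, as it did for 51.5% of all genes tested and for 1210 of the 1390 genes that averaged 100 or more. For all 45 it lay inside 1.5-fold. These folds were computed with 1 added to each value, which understates the change of low genes such as Cox4i2. With 0.1 added instead, the log2 fold change of Cox4i2 was -0.26, and its interval there is not given. Log2 fold changes ran from -0.19 for Cox4i2 to 0.069 for Cox8a, and without Cox4i2 from -0.088 for Cox5b. Their median was 0.0098, with 30 of 45 above 0, beside a median of -0.015 over all genes tested. That count moved with the setting, to 39 of 45 with median-of-ratios scaling, edgeR or DESeq2, 43 with library size scaling, 42 without MI4KO mouse 4, 15 without flox mouse 1 and 1 without MI4KO mouse 3. Standard errors ran from 0.070 to 0.16. The spread between mice of a group had a median SD of 0.12 on the log2 scale over the 45 genes, against 0.15 over all genes and 0.11 over those averaging 100 or more. Since these are bulk samples, fewer fibers and less RNA in each fiber cannot be told apart.

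**Figure D1:**
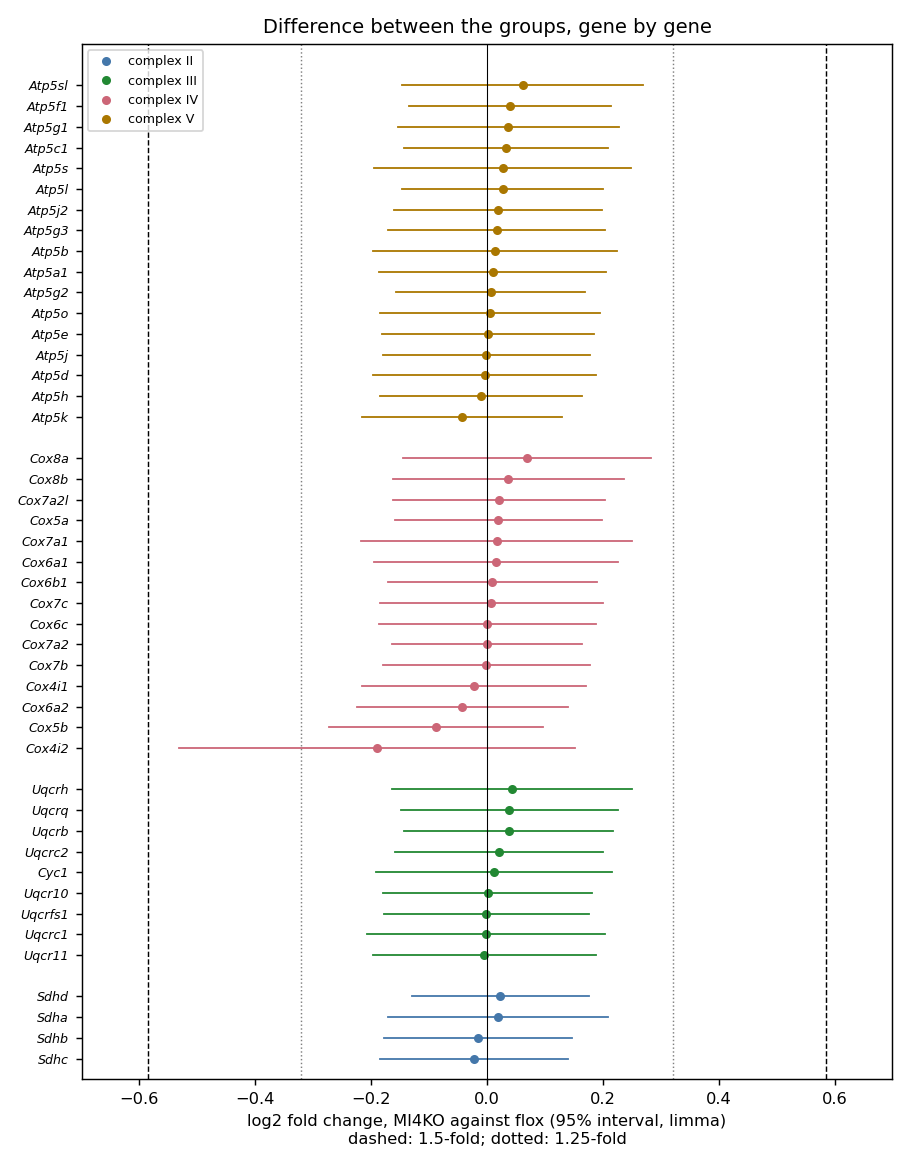
Log2 fold change of each tested gene between MI4KO and flox mice (points, limma on log2(value + 1), n = 4 per group) with its 95% interval (lines), grouped by complex. All 45 intervals include 0 and lie inside the dashed lines at 1.5-fold, and only that of Cox4i2 crosses a dotted line at 1.25-fold.

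Complex II, succinate dehydrogenase, is made of a flavoprotein (Sdha), an iron-sulfur protein (Sdhb) and the membrane anchors Sdhc and Sdhd. Sdhd had the highest fold change of the complex and was at 375, 379.9, 407 and 375 in flox mice and 394, 369, 426 and 375 in MI4KO mice. The groups overlapped, with MI4KO mouse 3 and flox mouse 3 the highest of their groups (log2 fold change 0.023, 95% interval -0.13 to 0.18, unadjusted p = 0.75). Sdhc had the lowest fold change and was at 626, 627, 676 and 632 in flox mice and 643, 595, 695 and 591 in MI4KO mice, again with both mice numbered 3 at the top (log2 fold change -0.023, 95% interval -0.18 to 0.14, unadjusted p = 0.77). Per kb of transcript, Sdhb was the most abundant, at 811 in flox mice against 202 for Sdhc. Sdhb was at 887, 909.6, 980.2 and 929 in flox mice and 908, 884, 1008 and 869 in MI4KO mice (log2 fold change -0.015). Sdha, which holds the flavin, was at 1168, 1101, 1219 and 1137 in flox mice and 1109.9, 1047, 1340.3 and 1208 in MI4KO mice. MI4KO mouse 3 and flox mouse 3 were the highest mice for both Sdha and Sdhb, while MI4KO mouse 4 was the third highest for Sdha and the lowest for Sdhb.

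Complex III, the cytochrome bc1 complex, gave 9 genes, whose log2 fold changes ran from -0.0046 to 0.044. Uqcrh, the hinge protein beside cytochrome c1, had the highest and was at 349.5, 400.3, 417 and 388 in flox mice and 394, 372, 482 and 362 in MI4KO mice (log2 fold change 0.044, 95% interval -0.16 to 0.25, unadjusted p = 0.66). Uqcr11 had the lowest and was at 312, 357, 359.9 and 361 in flox mice and 352, 322, 403 and 313 in MI4KO mice, so that flox mouse 1 and MI4KO mouse 4 were nearly level and lowest in their groups. The most abundant per kb was Uqcrc1, a core protein, at 895 in flox mice, and its values were 1419.6, 1445, 1595 and 1455 in flox mice and 1381, 1358, 1766 and 1430.5 in MI4KO mice (log2 fold change -0.0021, 95% interval -0.21 to 0.20). Cyc1 (cytochrome c1) and Uqcrfs1 (the Rieske iron-sulfur protein), which carry electrons, were at 842 ± 58.6 and 751 ± 27.3 (SD, n = 4) in flox mice and at 852 ± 108 and 752 ± 77.8 (SD, n = 4) in MI4KO mice. The small subunits Uqcrb, Uqcrq and Uqcr10 had log2 fold changes of 0.037, 0.039 and 0.0011. The rank of Uqcrq per kb depends on the transcript taken as its length, at 386 with the transcript of 1521 bases used here and 1449 with the shortest principal one.

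Complex IV, cytochrome c oxidase, had the widest range of levels. Per kb it ran from 1.31 for Cox6b2 to 2170.0 for Cox6a2, the muscle isoform of subunit 6a, in flox mice. Cox4i1, the main form of subunit 4, was at 922, 1001, 1037 and 993 in flox mice and 949, 902, 1147 and 908 in MI4KO mice (log2 fold change -0.022, 95% interval -0.22 to 0.17). Cox4i2, its counterpart known from lung and from oxygen-regulated expression, was near the filter limit, at 2.31, 2.91, 2.48 and 3.497 in flox mice and 2.03, 2.59, 1.73 and 3.02 in MI4KO mice, and its lowest value was that of MI4KO mouse 3, which was the highest mouse for most other genes. The difference was within the spread between mice (log2 fold change -0.19, 95% interval -0.53 to 0.15, unadjusted p = 0.25, Benjamini-Hochberg adjusted p = 1.0). Between 26 and 50 reads per mouse were counted for it, where every other tested gene of these complexes had at least 172. Cox4i2 lies at chr2:152754173-152765037 and Cox4i1 at chr8:120668222-120674207 of GRCm38.

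The muscle isoforms were the main form in SOL of both groups. Per kb of transcript, the flox mean of the ratio of the muscle to the wider isoform was 37.5 for subunit 6a, 12.6 for subunit 8 and 2.39 for subunit 7a, against 36.01, 12.3 and 2.42 in MI4KO mice. The ratios given mouse by mouse are of the values themselves, not per kb. Cox6a2 was at 1418, 1448, 1539 and 1497 in flox mice and 1495, 1398, 1579.8 and 1274 in MI4KO mice, and Cox6a1 at 33.4, 32.4, 30.5 and 36.7 in flox mice and 30.2, 32.1, 40.1 and 32.6 in MI4KO mice. Their ratio was 42.4, 44.7, 50.5 and 40.8 in flox mice and 49.5, 43.5, 39.4 and 39.1 in MI4KO mice, so that the muscle isoform made up 97.8% of the pair's reads in flox mice. The groups overlapped and differed by -0.059 on the log2 scale (SE 0.10).

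For subunit 8 the 2 isoform genes were farther from each other than the groups were. Cox8b, the muscle form, was at 519, 531, 565 and 544 in flox mice and 572, 511, 657 and 487 in MI4KO mice, while Cox8a was at 58.5, 60.8, 68.7 and 74.5 in flox mice and 65.5, 64.7, 80.97 and 64.5 in MI4KO mice. Cox8a had the highest log2 fold change of the complex (log2 fold change 0.069, 95% interval -0.14 to 0.28, unadjusted p = 0.50). The ratio of Cox8b to Cox8a was 8.86, 8.72, 8.21 and 7.295 in flox mice and 8.74, 7.89, 8.11 and 7.55 in MI4KO mice, lowest in flox mouse 4 and highest in flox mouse 1. It differed by -0.033 on the log2 scale (SE 0.077) between the groups.

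Subunit 7a was the most evenly shared of the 3 muscle pairs. Cox7a1, the muscle form, was at 287, 347, 349 and 336 in flox mice and 320.0, 305, 418 and 300.2 in MI4KO mice, with MI4KO mouse 3 above all others (log2 fold change 0.016, 95% interval -0.22 to 0.25, unadjusted p = 0.88). Without flox mouse 1 and MI4KO mouse 3, a setting chosen after seeing the data, its log2 fold change was -0.16. This was the 1 result among the 45 genes at an unadjusted p under 0.05 in any setting run (limma adjusted p = 0.89). In that setting, 5.37% of all genes tested passed the same unadjusted p. Cox7a2, the wider form, was at 220.0, 231, 248 and 228 in flox mice and 241, 222, 254 and 211 in MI4KO mice. Their ratio was 1.31, 1.504, 1.41 and 1.48 in flox mice and 1.33, 1.38, 1.65 and 1.42 in MI4KO mice and differed by 0.017 on the log2 scale (SE 0.082). Cox7a2l, which encodes a related protein, had a log2 fold change of 0.020. Cox4i2 made up 0.282% of the reads of the Cox4 pair in flox mice, and its ratio to Cox4i1, from 0.00151 to 0.00352 over the 8 mice, differed by -0.25 on the log2 scale (SE 0.28). The other complex IV genes (Cox5a, Cox5b, Cox6b1, Cox6c, Cox7b and Cox7c) had log2 fold changes between -0.088 for Cox5b and 0.019 for Cox5a, none past the test. Cox5b, a subunit of the enzyme's matrix side, was at 681, 771, 783 and 752 in flox mice and 729, 715, 762 and 609 in MI4KO mice, with MI4KO mouse 4 the lowest (95% interval -0.27 to 0.096), and 25.9% of the stretches of 50 bases in its transcript are shared with the predicted coding gene Gm11273.

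**Figure D2:**
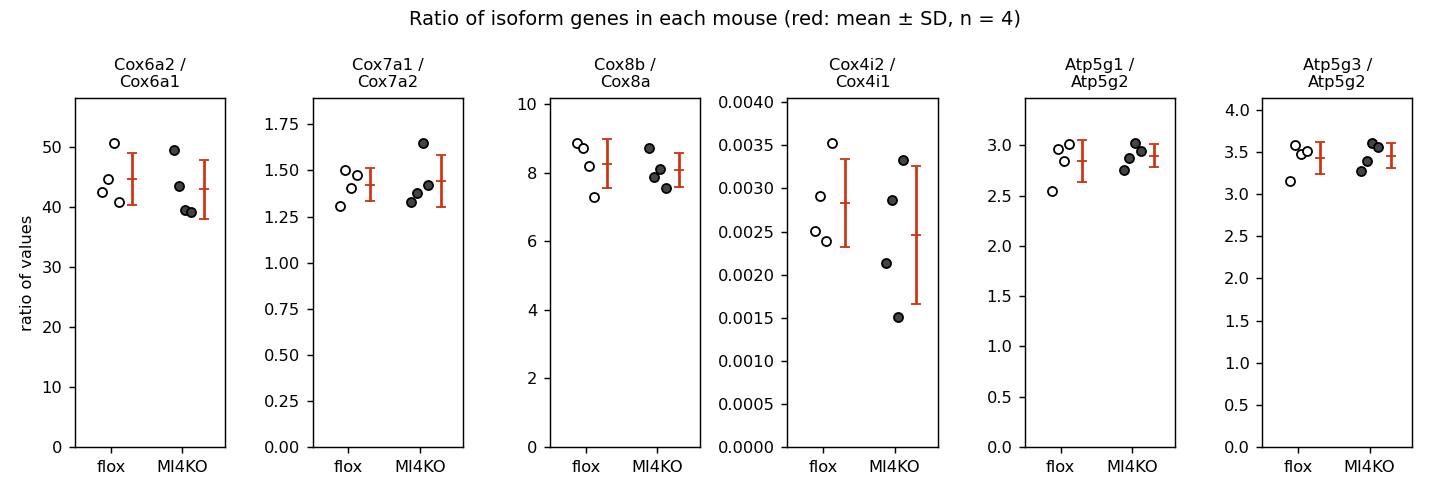
Ratio of the values of 6 pairs of isoform genes in each mouse (open points flox, filled points MI4KO, red mean ± SD, n = 4 per group), each panel on its own axis from 0. The ratio of Cox6a2 to Cox6a1 lies between 39.1 and 50.5 and that of Cox8b to Cox8a between 7.295 and 8.86, and the groups overlap in every panel.

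Complex V, ATP synthase, held the most abundant genes. Atp5b, the catalytic beta subunit, was highest of all 46 both as a value and per kb (2446 in flox mice), at 4595, 4590.0, 4905 and 4654 in flox mice and 4527, 4431, 5495 and 4539 in MI4KO mice. Atp5a1, the alpha subunit, followed within the complex at 4039 ± 138 in flox mice and 4075 ± 329.8 in MI4KO mice (SD, n = 4). Both pairs of values overlapped between groups, with log2 fold changes of 0.014 for Atp5b and 0.0098 for Atp5a1. The other parts of the catalytic head, Atp5c1 (gamma), Atp5d (delta) and Atp5e (epsilon), had log2 fold changes of 0.033, -0.0040 and 0.0019. Those of the stalk proteins Atp5f1 (b), Atp5h (d), Atp5j (F6) and Atp5o (OSCP) were 0.040, -0.0098, -0.0009 and 0.0052.

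The lowest fold change of complex V was that of Atp5k (subunit e, at the dimer interface), at 275, 314, 315 and 293 in flox mice and 294, 269, 326 and 274 in MI4KO mice (log2 fold change -0.044, 95% interval -0.22 to 0.13, unadjusted p = 0.59). The highest was that of Atp5sl, the accessory factor, at 58.2, 56.1, 56.6 and 61.3 in flox mice and 58.6, 52.9, 74.3 and 58.4 in MI4KO mice (log2 fold change 0.061, 95% interval -0.15 to 0.27, unadjusted p = 0.53). MI4KO mouse 3 was the highest mouse for both. Atp5s, the other accessory factor, was the lowest gene of complex V per kb (9.600 in flox mice), at 14.3 ± 1.59 and 14.5 ± 1.26 (SD, n = 4) in flox and MI4KO mice.

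The c subunit ring is supplied by Atp5g1, Atp5g2 and Atp5g3. Atp5g1 was at 714, 805, 817 and 811 in flox mice and 783, 770.0, 939.8 and 744 in MI4KO mice. Atp5g2 had the lowest values of the 3, at 281, 271, 287 and 269 in flox mice and 284, 268, 311 and 252 in MI4KO mice, and Atp5g3 was at 886, 972, 997 and 947 in flox mice and 930.3, 910.2, 1121 and 897 in MI4KO mice. Per kb, Atp5g2 was at 379, Atp5g1 at 1320.0 and Atp5g3 at 1331 in flox mice, but the order of the first 2 depends on the transcript taken, since Atp5g1 was at 167 with its longest principal transcript and Atp5g2 at 628 with its shortest. The log2 fold changes of Atp5g1, Atp5g2 and Atp5g3 were 0.037, 0.0062 and 0.017, with every 95% interval between -0.17 and 0.23. The ratio of Atp5g1 to Atp5g2 was 2.54, 2.97, 2.85 and 3.01 in flox mice and 2.75, 2.87, 3.02 and 2.95 in MI4KO mice, lowest in flox mouse 1, and that of Atp5g3 to Atp5g2 was 3.16, 3.58, 3.47 and 3.52 in flox mice and 3.27, 3.397, 3.601 and 3.55 in MI4KO mice, lowest in the same mouse. The ratios differed by 0.031 on the log2 scale (SE 0.062) and 0.011 on the log2 scale (SE 0.051). Of the possible stretches of 50 bases in their transcripts, 66.0% of those of Atp5g1 and 87.4% of those of Atp5g2 also occur in other annotated transcripts, mostly pseudogenes, against 0% for Atp5g3, so that reads of the first pair may have been split and their levels are uncertain. The same holds for 13 of the 46 genes in which over 10% of such stretches are shared, among them Atp5l (68.5%), Cox7c (52.95%), Atp5h (50.5%), Uqcrb (43.2%) and Cox6a1 (12.3%), so that the level behind the ratio of Cox6a2 to Cox6a1 is uncertain too. Cox6a2, Cox7a1, Cox7a2, Cox8a and Cox8b share 0%.

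**Figure D3:**
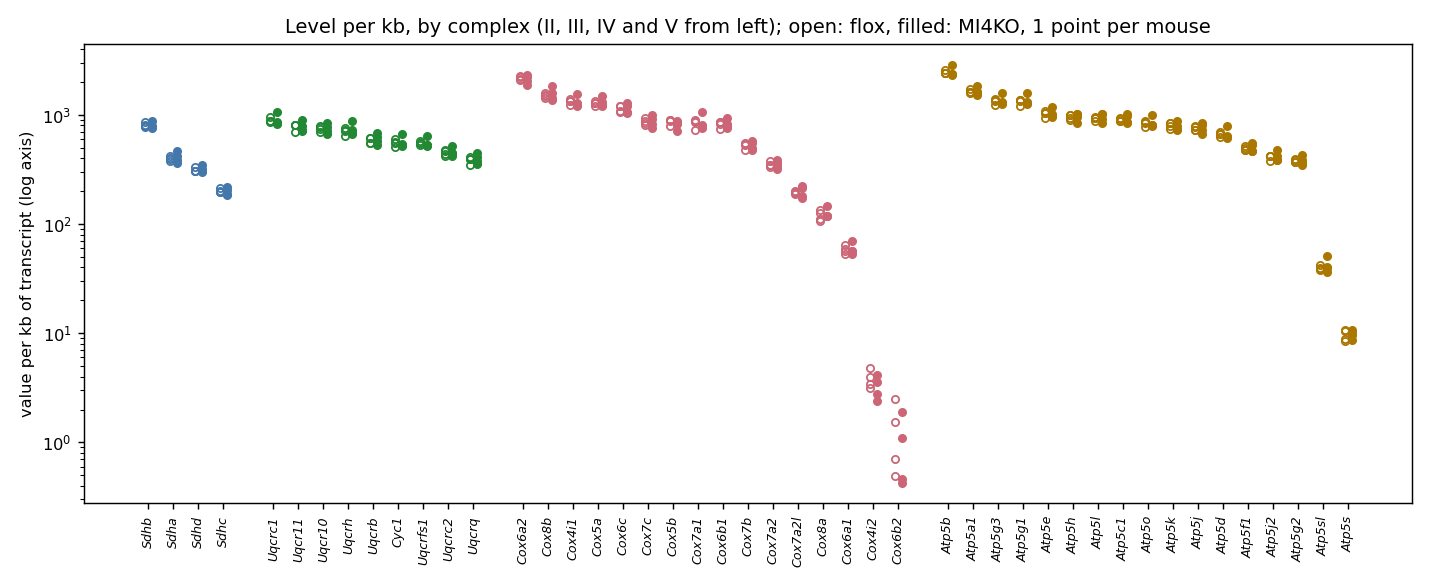
Value per kb of transcript (log axis) of the 46 genes, 1 point per mouse (open flox, filled MI4KO), in order of the flox mean within complexes II, III, IV and V from left to right. Atp5b and Cox6a2 lead their complexes at 2446 and 2170.0 in flox mice, Cox4i2 and Cox6b2 lie below 5, and open and filled points overlap for every gene.

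Summed over its genes, each complex overlapped between the groups as deposited. Complex II summed to 3055, 3017, 3282 and 3074 in flox mice and 3055, 2895, 3469.6 and 3043 in MI4KO mice, and complex III to 5492, 5886, 6256 and 5901 in flox mice and 5795, 5541, 6919 and 5572 in MI4KO mice. Complex IV summed to 7039.7, 7586, 7905 and 7553 in flox mice and 7636, 7084, 8477 and 6734 in MI4KO mice, and complex V to 16140.1, 16759.7, 17478 and 16677 in flox mice and 16763, 15858, 19244 and 16015 in MI4KO mice. The ratios of the MI4KO to the flox mean were 1.003, 1.01, 0.995 and 1.01, and MI4KO mouse 3 had the highest sum of each. The 46 genes together took 3.28 ± 0.121% of the column sum in flox mice and 3.39 ± 0.107% in MI4KO mice (SD, n = 4), from 3.15% to 3.499% over the 8 mice. As a share of the column sum, complexes III, IV and V also overlapped, while complex II did not, at 0.304, 0.313, 0.306 and 0.301% in flox mice and 0.314, 0.315, 0.319 and 0.315% in MI4KO mice. This share was picked out after its values were seen and has no test, its means were 0.306 and 0.316%, and with median-of-ratios scaling the sums of complex II overlapped. None of the 4 complex II genes reached an unadjusted p under 0.05 in limma with library size scaling, and the values of each overlapped. Of all genes tested, 2.55% did not overlap with that scaling. The median log2 fold changes of complexes II, III, IV and V were 0.0020, 0.013, 0.0073 and 0.014. The 36 complex I genes, measured in the same mice and not part of the set, had a median of 0.012 with 0 at an unadjusted p under 0.05 by limma.

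The largest differences in the set lay between mice and ran through most genes at once. MI4KO mouse 3 had the highest value of the 8 mice in 42 of the 45 genes, the exceptions being Cox4i2, Cox5b and Atp5s. Over all 11865 genes tested it was highest in 3666. With median-of-ratios scaling it was highest in 32 of the 45 and in 2535 of all genes. With library size scaling it was highest in 19 and 1572, and MI4KO mouse 1 in 17 and 2355. As deposited, MI4KO mouse 4 was lowest in 18 of the 45 genes, flox mouse 1 in 13 and MI4KO mouse 2 in 10. Over all genes tested these mice were lowest in 1706, 854 and 1986. As the median over the 45 genes of log2(value + 1) minus the gene's mean of 8 mice, flox mice 1 to 4 lay at -0.087, 0.013, 0.066 and -0.0007 and MI4KO mice 1 to 4 at 0.011, -0.078, 0.19 and -0.11. The complex I genes gave 0.21 in MI4KO mouse 3 and -0.12 in MI4KO mouse 4. Over all genes tested the same median was 0.066 and -0.015 in these mice. Across the 8 mice, 37 of the 45 genes correlated with the median of the other 44 at Pearson's r above 0.8 (median 0.91, description only, since the genes share libraries and scaling). Cox4i2 was lowest at -0.561, and the next were Atp5s at 0.1696 and Cox6a1 at 0.4898. With library size scaling, 28 of the 45 genes were above 0.8 (median 0.84). The lowest there were Cox4i2 at -0.298 and Sdha at -0.084, where Sdha was at 0.62 as deposited.

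**Figure D4:**
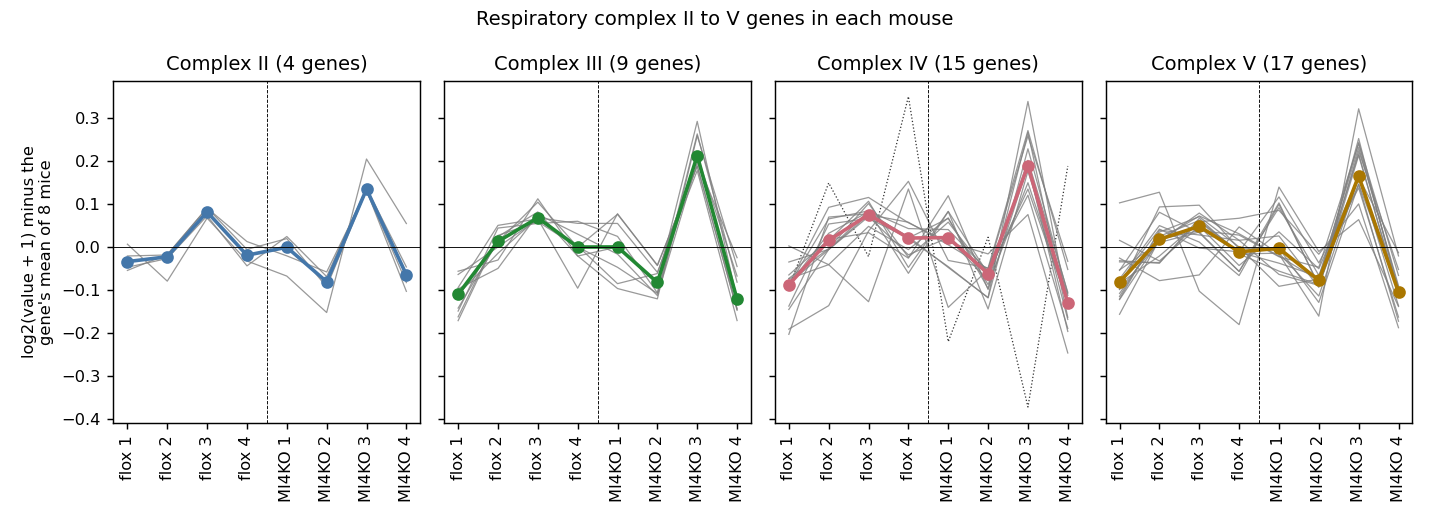
Log2(value + 1) minus the gene's mean of 8 mice for each tested gene (grey lines, 1 per gene, with Cox4i2 dotted) and their median (coloured points), by complex, with flox mice left of the dashed line and MI4KO mice right of it. In all 4 complexes MI4KO mouse 3 has the highest median and MI4KO mice 2 and 4 lie below 0. Cox4i2 does not follow the others and is lowest in MI4KO mouse 3.

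How far MI4KO mouse 3 stood out depended on the scaling of the libraries. Divided by median-of-ratios factors, its median over the 45 genes was 0.12, and scaled to equal library sizes it was 0.066, close to flox mouse 2 at 0.064. Flox mouse 1 and MI4KO mouse 4 stayed lowest under library size scaling, at -0.096 and -0.058. The median log2 fold change of the 45 genes was 0.0098 as deposited, 0.030 with median-of-ratios and 0.054 with library size scaling. That of all genes moved with it, from -0.015 to 0.0044 and 0.026. Without MI4KO mouse 3 the median of the 45 genes was -0.051, with 44 of 45 below 0 and 0 at an unadjusted p under 0.05 by limma, and without flox mouse 1 it was -0.019. Leaving out either of these mice thus turned the direction of the small median. With the range of the label numbers as a covariate it was 0.034.

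**Figure D5:**
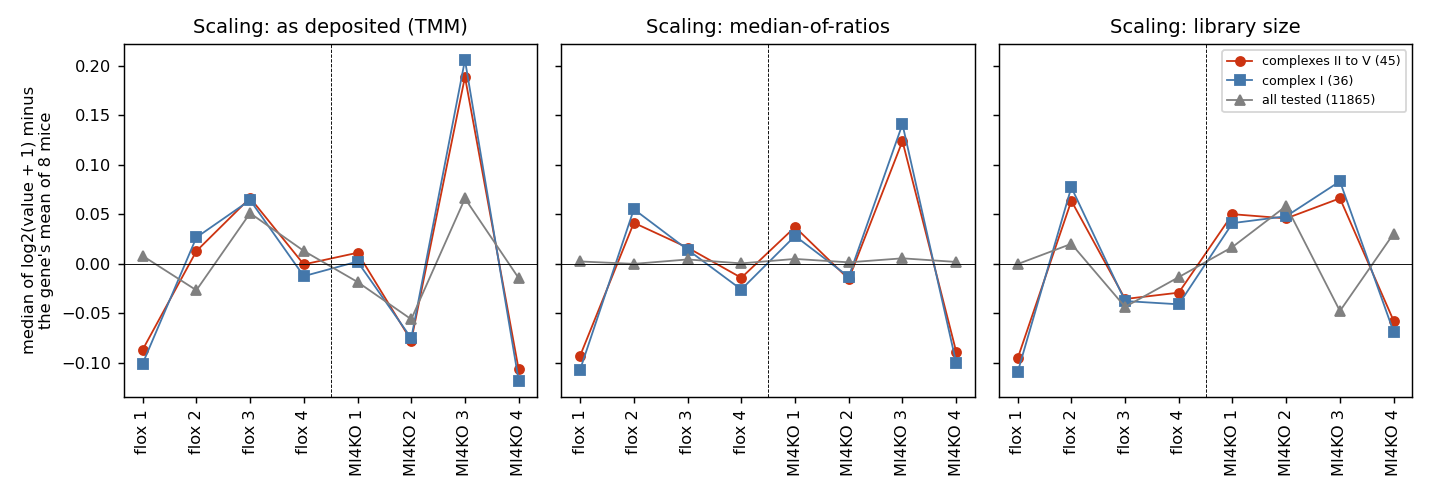
Median over genes of log2(value + 1) minus the gene's mean of 8 mice, in each mouse, for complexes II to V (red circles), complex I (blue squares) and all genes tested (grey triangles), under 3 scalings of the libraries. The 2 sets of respiratory genes run together in each panel, and MI4KO mouse 3 drops from 0.19 as deposited to 0.066 with library size scaling.

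In the other genes of the pathway, too, no difference passed the test. Of 38 listed assembly factors, which build complexes II to V, 33 were tested and 0 passed an unadjusted p under 0.05 by limma. They ran from -0.10 for Surf1, a complex IV factor, to 0.22 for Sco2, which brings copper to complex IV (95% interval -0.19 to 0.63), with a median of 0.032. The smallest p was that of Atpaf1, which helps to assemble the catalytic head of complex V, at 78.3 ± 2.297 in flox mice and 84.6 ± 6.24 in MI4KO mice (SD, n = 4), with a log2 fold change of 0.11 (95% interval -0.047 to 0.26). Of 9 electron carriers and associated proteins, 8 were tested and 0 passed, from 0.0087 for Higd2a to 0.069 for Hccs, which attaches heme to cytochrome c. Cycs, cytochrome c itself, was at 603, 739, 676 and 645 in flox mice and 695, 659.9, 753 and 614 in MI4KO mice, and Ndufa4, now counted with complex IV, had a log2 fold change of 0.045.

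Among 12 regulators of respiratory chain genes, 0 passed an unadjusted p under 0.05 by limma. Ppargc1a, the coactivator PGC-1α, had the highest log2 fold change and was at 76.7, 28.5, 37.7 and 32.9 in flox mice and 45.6, 35.1, 101 and 48.8 in MI4KO mice. MI4KO mouse 3, highest in most subunit genes, was highest for Ppargc1a and also had the lowest Irf4 value, on 4 reads. Flox mouse 1 had the next highest Ppargc1a and the lowest Irf4 of the flox mice, yet was the lowest mouse in 13 subunit genes, and the part of either gene in the levels was not tested. The groups overlapped (log2 fold change 0.38, 95% interval -0.31 to 1.07, unadjusted p = 0.25). Ppargc1b had the lowest, at 14.1, 16.1, 17.1 and 22.1 in flox mice and 14.7, 12.4, 11.5 and 18.7 in MI4KO mice (log2 fold change -0.27, 95% interval -0.60 to 0.070, unadjusted p = 0.11). Tfam, Nrf1, Esrra and Gabpa, whose products act on mitochondrial DNA or on promoters with the letters shown above, had log2 fold changes of -0.0017, 0.022, 0.014 and 0.14. Slow fiber markers, whose fibers are rich in mitochondria, had 0 of 7 genes at that p, with log2 fold changes from -0.17 for Myh7 to -0.030 for Tnnc1. Of 8 fast fiber markers only Myl1, at the Cre locus, passed it (log2 fold change -0.41, limma adjusted p = 1.0). The log2 fold changes of the 8 ran up to 0.57 for Myh4, with 4 above 0 and 4 below. Myh4 itself ran from 34.5 to 2496 over the mice. Fast fiber markers summed to 50638 to 55794 in flox mice and 43723 to 58962 in MI4KO mice, highest in MI4KO mouse 3. Endothelial markers (4 genes) summed to 305 to 367 in flox mice and 226 to 324 in MI4KO mice. Of the 4, 2 were lower in MI4KO mice at an unadjusted p under 0.05 by limma. So were 1 of 6 adipocyte markers and 1 of 7 red cell markers. Over all 11865 genes tested, 350 were lower and 49 higher at that p. With library size scaling, 66.6% of the genes at that p were higher. The part of any of these markers in the levels above was not tested.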

How the data were processed

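SOL RNA of 4 MI4KO and 4 flox mice was analysed. Per the labels, the authors made stranded poly(A) libraries, and the submitters' processing notes name bcl2fastq 2.17, Bowtie2 2.1.0, RSEM 1.2.15 and mm10. The deposited signal is the authors' TMM-normalized CPM per gene and mouse. Fold change, p-value and FDR columns of the authors' own comparison were not used. Division by each mouse's step gave whole reads for 100% of non-zero values (tolerance 0.1), with 13417512 to 16384565 reads per mouse, where 3 reads are taken as detected. These limits cover counting error only.

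Genes that reached 1 in 4 mice or more were compared with limma 3.58.1 (R 4.3.3) with a mean-variance trend on log2(value + 1), which understates the change of low genes, and p-values were Benjamini-Hochberg adjusted over all 11865 genes. edgeR 4.0.16 and DESeq2 1.42.0 ran on recovered reads as alternatives. Irf4 was also compared by an exact permutation test (scipy 1.17.1). The script for all genes was tested on simulated data. Nothing in the labels says how the mice were raised, so p-values measure the spread between these 8 samples. Isoform ratios and sums have no test. Levels per kb use the shortest coding GENCODE M21 transcript tied to RefSeq, and the table itself has no coordinates. Named genes were the isoform pairs, those at an unadjusted p under 0.05, those with separate groups, and the highest, lowest and most abundant of each complex; Sdha, Cox5b, Atp5a1 and other genes given by their role were added after their values were seen. The set of genes and all lists were chosen with earlier results of these data known. Other settings were scaling, pseudocount, filter, limma options, the mouse number range as covariate, and each mouse left out.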

Additional observations from a re-analysis of the deposited data

Results flagged for a closer look

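Within a group of 4 mice, a mouse was singled out where its gap to the next mouse, divided by the range of the group on the log2(value + 1) scale, was above Dixon's limit at the 95% level, which chance passes in about 1 of 20 groups. Of 112 groups of 4 examined over the 46 genes, 6 isoform ratios and 4 summed complexes, 12 passed. MI4KO mouse 3 was the highest of its group in 7 of them, with gaps of 0.935 for Cox8a, 0.837 for Atp5g3, 0.836 for Cyc1, 0.924 for Atp5o, 0.888 for Atp5b, 0.921 for Uqcrfs1, 0.880 for Atp5d. Flox mouse 1 was the lowest of its group in 3, with gaps of 0.896 for Atp5g1, 0.853 for Atp5j2, 0.925 for Uqcr11. Flox mouse 3 was the highest of its group in 2, with gaps of 0.831 for Sdhd, 0.864 for Sdhc. Since the genes move together between mice, these are not independent of each other.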

How the results depend on the processing

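Over the deposited values and 18 other settings, 0 of the 45 genes reached an adjusted p under 0.05, and the smallest adjusted p was 0.89. The count at an unadjusted p under 0.05 was 0 in each, except 1 (Cox7a1) without both flox mouse 1 and MI4KO mouse 3, a setting chosen after seeing the data. The counts for all genes at that p, 399 as reported, were 248 with DESeq2, 634 without the filter, 637 without both mice and 258 to 618 with each mouse left out, and the adjusted count was 1 without MI4KO mouse 2 and without both mice, and 0 in every other setting. The medians of the 4 complexes and the 6 isoform ratios moved by less than the spread between mice in each setting run. The 20 named genes gave 360 other values, of which 77 changed sign, each for a gene whose reported value lay within 1 standard error of 0, and the cause was not tested. Log2 fold changes with the other sign were, without both mice, Atp5b -0.068, Atp5g1 -0.083, Atp5g2 -0.041, Atp5g3 -0.090, Atp5sl -0.034, Cox6a1 -0.064, Cox7a1 -0.16, Cox8a -0.062, Cox8b -0.064, Sdhd -0.031, Uqcrh -0.096; with library size scaling, Atp5k 0.0003, Cox4i1 0.022, Cox6a2 0.0019, Cox7a2 0.044, Sdhb 0.029, Sdhc 0.022, Uqcr11 0.040, Uqcrc1 0.042; and with the range of mouse numbers as covariate, Cox4i1 0.012, Cox7a2 0.011, Sdhb 0.0026, Uqcr11 0.028, Uqcrc1 0.037. In DESeq2 they were Cox7a2 0.019, Sdhb 0.0033, Uqcr11 0.015, Uqcrc1 0.020, in edgeR Cox7a2 0.016, Sdhb 0.0005, Uqcr11 0.012, Uqcrc1 0.017, and with median-of-ratios scaling Cox7a2 0.020, Sdhb 0.0052, Uqcr11 0.016, Uqcrc1 0.018. With each mouse left out in turn, log2 fold changes ran from -0.058 to 0.045 for Atp5b, -0.037 to 0.075 for Atp5g1, -0.048 to 0.053 for Atp5g2, -0.057 to 0.050 for Atp5g3, -0.035 to 0.13 for Atp5sl, -0.10 to 0.013 for Cox4i1, -0.068 to 0.065 for Cox6a1, -0.090 to 0.013 for Cox6a2, -0.093 to 0.066 for Cox7a1, -0.045 to 0.043 for Cox7a2, -0.0096 to 0.13 for Cox8a, -0.046 to 0.097 for Cox8b, -0.062 to 0.012 for Sdhb, -0.070 to 0.0079 for Sdhc, -0.019 to 0.051 for Sdhd, -0.078 to 0.043 for Uqcr11, -0.089 to 0.038 for Uqcrc1, -0.046 to 0.091 for Uqcrh. No paired analysis was possible because the labels give the mice of both groups no shared replicate numbers. Cox6b2 (0.181 to 1.06) lay near the limit that 3 reads set, so that a difference in it was not detectable at this depth.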

Other observations

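The isoform genes Cox8b and Cox8a followed the other genes to different degrees from mouse to mouse, which was not tested. Pearson's r over 8 mice with the median of the other genes was 0.954 for Cox8b and 0.7502 for Cox8a. With library size scaling it was 0.853 and 0.494, given as a description of these mice. As deposited, the 12 genes with ETS letters, Cox8a among them, ran from 0.4898 for Cox6a1 to 0.981 for Uqcrh. Of the genes with TATA letters, Cox8b was at 0.954 and Atp5l, which also holds ETS letters, at 0.813. Any part of these letters in r was not tested. The muscle isoform Cox6a2 gave 0.857 against 0.4898 for Cox6a1. In both pairs the widely made isoform had the lower value and rests on fewer reads. The third muscle pair did not show this, at 0.962 for Cox7a1 and 0.932 for Cox7a2, and 0.845 and 0.856 with library size scaling.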
